A study of Mus musculus with 22 samples.

Results

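The genotype effect described here is the difference between back skin of K14-DN-Clim transgenic mice and of wild-type littermates, averaged with equal weight over 3 ages, postnatal day 6 (P6), P14 and P23. All 22 of the 22 arrays of the series entered it, and the difference DN-CLIM minus wild type was taken within each age before averaging, for all 12422 probe sets that are not array controls. Each genotype had 5 arrays of P6 skin, 3 of P14 skin and 3 of P23 skin. All mice were CB6F1, an F1 hybrid strain. The transgene is driven by the keratin 14 promoter, which is active in basal keratinocytes of the epidermis and the outer root sheath, while the RNA came from whole back skin. P6 and P14 stand for the first growth of the hair follicles and P23 for the first resting phase, telogen, according to the series' design. No label says which mouse an array came from, so p-values measure the spread between arrays, which may in part be technical.

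CLIM proteins (Ldb1 and Ldb2) are nuclear cofactors that hold no DNA-binding domain. They dimerise and bind the LIM domains of LIM homeodomain factors such as Lhx2 and of LMO proteins, and so bridge transcription factors on DNA. A dominant-negative CLIM occupies LIM domains without building such complexes. In skin, basal keratinocytes attach to the basement membrane through hemidesmosomes, and follicle stem cells reside in the bulge of the outer root sheath.

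The deposited values are MAS5 signals, the linear brightness summary of a probe set on a short-oligonucleotide array, and log2 of the signal was used. Array medians lay between 7.56 and 7.81 (log2). The mean correlation of an array with the others of its group ran from 0.933, in the fifth DN-CLIM array at P6, to 0.972. Without that array 21 probe sets passed the threshold used below in place of 16, and all 16 were among the 21. At P6, 6 of 10 arrays gave signals of both Xist and the Y-linked Eif2s3y above log2 6, 4 of them wild type and 2 DN-CLIM. At P14 and P23 each array gave only one of these, in equal numbers in both genotypes. With this class as a covariate 12 probe sets passed, all among the 16. No label names a batch. With the P6 arrays numbered 4 and 5 set against 1 to 3 as a term, 17 probe sets passed, 16 of them the same, and 15 (13 of them the same) and 17 (10 the same) passed with only arrays 1 to 3 or only 4 and 5 kept at P6. Ldb1 signals at P6 ran from 941 to 1185 in wild type and from 1185 to 1387 in DN-CLIM. The mean difference of Ldb1 over the ages was 0.11 ± 0.08 (log2, standard error, adjusted p = 0.925 in limma), and no source used here says whether its probe set lies in the transgene. Ldb2, the other CLIM gene, differed by 0.01 ± 0.07 (adjusted p = 0.998 in limma), and this sign turned in 6 of the alternative analyses.

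A small set of genes differed between the genotypes over the 3 ages. 16 probe sets passed the threshold of adjusted p below 0.05 (limma, Benjamini-Hochberg adjustment), which is 0.129% of those tested. 6 were higher in DN-CLIM (0.0483%) and 10 were lower (0.0805%), and 15 of them name 1 gene each. The homeobox gene Gsc, the keratin Krt7, the actin-associated LIM protein gene Pdlim4, the nucleoside transporter Slc29a1 and the non-coding RNA Meg3 rose. The hemidesmosome collagen Col17a1, the basal keratinocyte zinc finger gene Bnc1, the matrix protein gene Npnt, the LIM-only gene Lmo4, the retinoic acid binding protein gene Crabp1, Scrg1, Gnmt, Arg1, Rflnb and Nrep fell. The other probe set past the threshold has no single gene in the platform annotation. Its difference was 0.57 ± 0.08 (log2, standard error, adjusted p = 0.00175 in limma), and by age 0.12, 0.82 and 0.76. At an unadjusted p below 0.05, 719 probe sets passed (5.79%), against 621 given by chance at that level.

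The 15 genes had the same sign at all 3 ages, as had 3189 probe sets in all (25.7%). Since the average was the measure that chose the genes, that share is a description. Genotype groups that did not overlap at any of the 3 ages, in 1 direction, were found for 4 probe sets of all tested (0.0322%), and each of them was among the called genes. Gsc, Krt7 and Pdlim4 were higher on every DN-CLIM array than on any wild-type array of the same age (3 probe sets, 0.0242%), and Bnc1 was lower (1 probe set, 0.00805%). At 2 or more ages the groups were apart in 1 direction for 139 probe sets (1.12%). Of the other called genes, 10 had groups apart at 2 ages and Meg3 at P14 alone. At single ages, groups did not overlap for 0.918% of probe sets at P6, 14.1% at P14 and 12.5% at P23, where fewer arrays make this easier. 7 of the 15 genes passed the threshold at no single age, 6 passed at 1, Bnc1 at 2 and Gsc at all 3. The 15 genes lie on 11 chromosomes.

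The promoters of Gsc, Bnc1 and Col17a1 are shown because these 3 genes passed under every alternative analysis that could be run for them. The windows run from 250 bases before to 50 bases after the RefSeq transcript start (GRCm38.p6), all on the minus strand, at chr12:104473187-104473486 for Gsc, chr7:81992250-81992549 for Bnc1 and chr19:47691993-47692292 for Col17a1. Capitals mark matches to 4 motifs searched on both strands, namely TAATTA, the core of LIM homeodomain sites, CAGCTG, an E-box, AGATAA, which the zinc finger factors of the Gata family read, and TGANTCA, the AP-1 site. No 2 of these motifs overlap in the windows shown.
Gsc: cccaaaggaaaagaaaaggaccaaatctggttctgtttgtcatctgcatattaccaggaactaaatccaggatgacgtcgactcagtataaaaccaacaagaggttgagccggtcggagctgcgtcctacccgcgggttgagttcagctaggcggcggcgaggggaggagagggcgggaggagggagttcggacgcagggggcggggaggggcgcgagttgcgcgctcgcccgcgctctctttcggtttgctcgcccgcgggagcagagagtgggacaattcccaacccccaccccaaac
Bnc1: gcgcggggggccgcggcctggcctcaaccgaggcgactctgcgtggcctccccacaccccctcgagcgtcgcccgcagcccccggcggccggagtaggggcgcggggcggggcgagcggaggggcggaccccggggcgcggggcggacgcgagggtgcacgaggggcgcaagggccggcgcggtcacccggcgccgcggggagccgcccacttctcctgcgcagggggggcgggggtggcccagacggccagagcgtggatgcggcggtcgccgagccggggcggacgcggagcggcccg
Col17a1: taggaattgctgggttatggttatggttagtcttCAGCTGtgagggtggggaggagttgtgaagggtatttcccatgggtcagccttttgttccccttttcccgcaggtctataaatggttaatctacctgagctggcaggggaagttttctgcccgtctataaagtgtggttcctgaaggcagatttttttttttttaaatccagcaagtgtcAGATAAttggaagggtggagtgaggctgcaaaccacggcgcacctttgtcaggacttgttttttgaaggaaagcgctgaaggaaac
In Col17a1 the E-box letters begin at -216 and the Gata letters at -36 from the start. Gsc and Bnc1 hold none of the 4 motifs in this window. The motif search covered 27025 promoters and did not cover every chromosome. Of the 15 called genes 12 were among the promoters searched, and the other called genes were not examined. CAGCTG was in 2 of these 12, Col17a1 and Slc29a1, and in 16.1% of the 27025 promoters searched. AGATAA was in 1 of 12, Col17a1, and in 11.4% of those searched. TAATTA and TGANTCA were in 0 of 12, and in 5.31% and 7.93% of the promoters searched.

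Gsc, which encodes goosecoid, a homeodomain repressor best known from the gastrula organizer and from craniofacial development, had the largest difference of all called genes. Gsc signals at P6 were 3.54, 2.85, 6.38, 5.36 and 5.63 in wild type and 219, 138, 156, 191 and 230.3 in DN-CLIM. Gsc signals at P14 were 4.6, 4.61 and 4.36 in wild type and 34.4, 34.9 and 24.5 in DN-CLIM. Gsc signals at P23 were 5.35, 3.37 and 3.47 in wild type and 63.2, 44.8 and 80.8 in DN-CLIM. At every age all DN-CLIM arrays lay far above all wild-type arrays, and the lowest DN-CLIM signal of any age was 24.5 against a highest wild-type signal of 6.38. The mean difference was 4.02 ± 0.22 (log2, standard error, adjusted p = 2.45e-10 in limma), and for P6, P14 and P23 in turn 5.33, 2.77 and 3.95. This is a 16.2-fold ratio of signals and 2.98-fold after adding 32 to each signal, since the wild-type signals are very dim and their ratio is poorly fixed. Gsc was the gene past the threshold at each age on its own (adjusted p = 1.27e-09, 0.00497 and 4.81e-05 in limma).

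**Figure D1:**
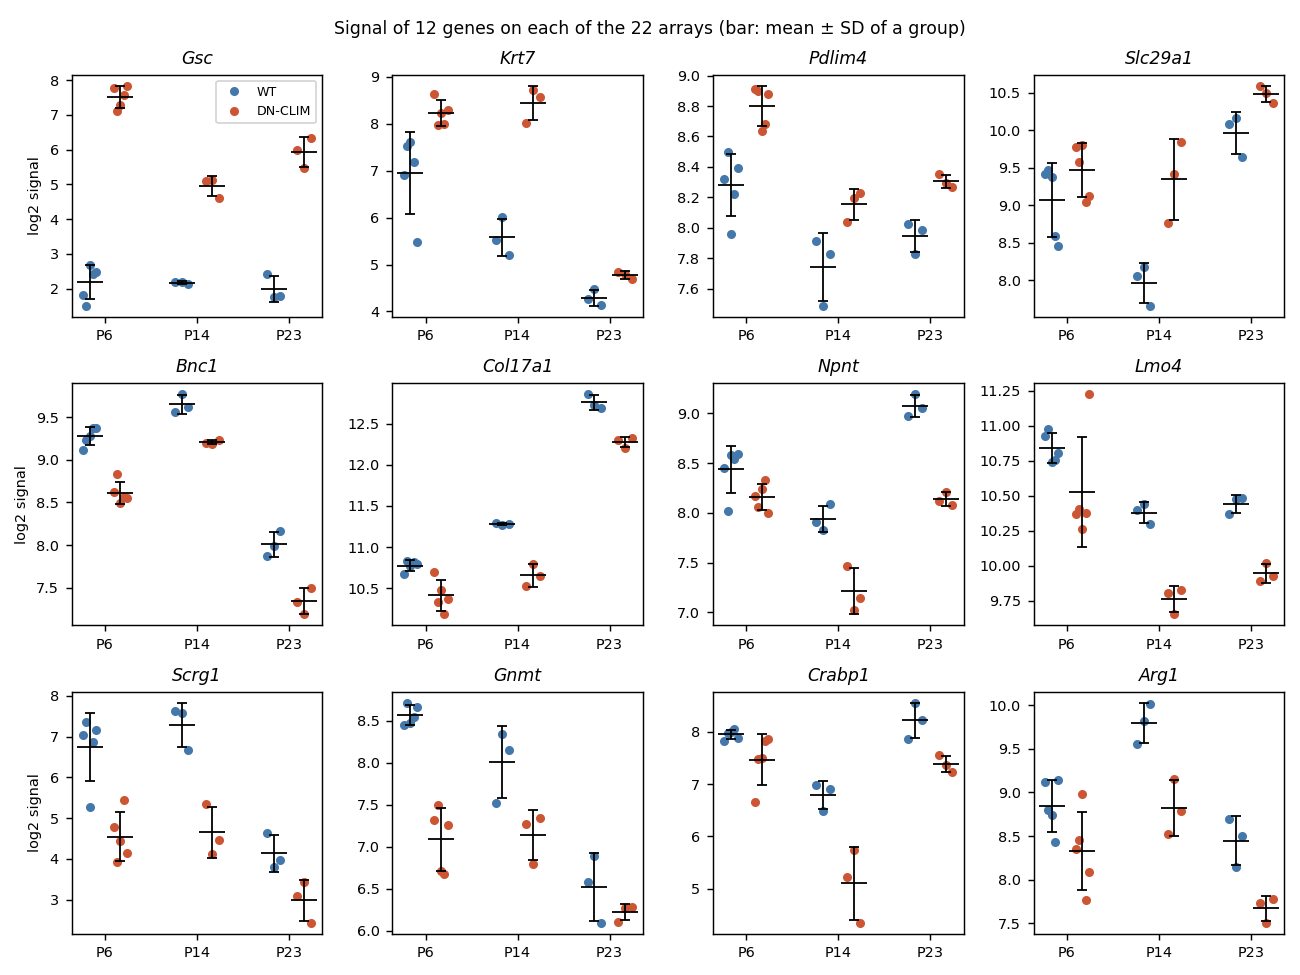
log2 signal (vertical axes) of 12 of the 15 called genes on each array, by age (horizontal axes) and genotype, with bars for the group mean ± SD. Gsc, Krt7, Pdlim4 and Bnc1 show no overlap between genotypes at any of the 3 ages, while 1 DN-CLIM array of Lmo4 at P6 lies above all wild-type arrays.

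Krt7, a keratin of simple and glandular epithelia, rose by 1.54 ± 0.22 (log2, standard error, adjusted p = 0.0013 in limma), a 2.91-fold ratio of signals. Krt7 signals at P6 were 119.7, 185, 197, 146 and 44.4 in wild type and 397, 251, 300.4, 253 and 316 in DN-CLIM. Krt7 signals at P14 were 45.8, 64.3 and 37.0 in wild type and 260.5, 424 and 382 in DN-CLIM. Krt7 signals at P23 were 19.2, 22.2 and 17.6 in wild type and 28.8, 27.7 and 25.8 in DN-CLIM. The groups were apart at each age, most widely at P14 and least at P23, where all signals were low. The fifth wild-type array at P6 was the lowest of its group. The differences were 1.28, 2.87 and 0.48 at P6, P14 and P23, and without P14 the adjusted p was 0.697.

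Pdlim4 encodes a PDZ and LIM domain protein that binds the actin cytoskeleton. Pdlim4 signals at P6 were 320.4, 361, 249, 298 and 336 in wild type and 482, 478, 398, 410.3 and 472 in DN-CLIM. Pdlim4 signals at P14 were 241, 179.6 and 227 in wild type and 263, 294 and 300.0 in DN-CLIM. Pdlim4 signals at P23 were 260.0, 227 and 253 in wild type and 327, 313 and 309 in DN-CLIM. Every DN-CLIM array read above every wild-type array of its age, by modest steps. The difference was 0.43 ± 0.08 (log2, standard error, adjusted p = 0.0384 in limma), with 0.52, 0.41 and 0.36 at the 3 ages, the most even of the 5 rises. A second, dim Pdlim4 probe set (17.3rd percentile of mean signal) differed by -0.45 and did not pass (adjusted p = 0.942 in limma).

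Slc29a1 encodes the equilibrative nucleoside transporter ENT1. Slc29a1 signals at P6 were 684, 711, 664, 387 and 353 in wild type and 879, 764, 892, 528 and 560.1 in DN-CLIM. Slc29a1 signals at P14 were 266, 291 and 203 in wild type and 436, 687 and 918 in DN-CLIM. Slc29a1 signals at P23 were 1083, 1151 and 801 in wild type and 1538, 1446 and 1319 in DN-CLIM. Over all P6 arrays the genotypes overlapped, and they were apart at P14 and P23. Within the P6 arrays numbered 1 to 3, and within those numbered 4 and 5, which read lower in both genotypes, DN-CLIM was higher without overlap. No label names this split of the arrays. With so few arrays such gaps are easily met, and their share over all probe sets was not counted. The Slc29a1 difference was 0.77 ± 0.15 (log2, standard error, adjusted p = 0.0458 in limma), and by age it was largest at P14. Slc29a1 passed in 6 of the 22 fits that each left out 1 array. Its second probe set gave 0.16 (adjusted p = 0.992 in limma).

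Meg3 is an imprinted, maternally expressed long non-coding RNA. Meg3 signals at P6 were 4690.1, 3658, 3899, 3200.3 and 2923 in wild type and 5482, 5197, 5131, 4177 and 3722 in DN-CLIM. Meg3 signals at P14 were 129.6, 501 and 132 in wild type and 1462, 802 and 1277 in DN-CLIM. Meg3 signals at P23 were 2782, 1738 and 1479.5 in wild type and 2054, 1864 and 1909.9 in DN-CLIM. The difference was largest at P14, where the 3 DN-CLIM arrays lay above the 3 wild-type arrays, and the genotypes overlapped at P6 and P23. At P6 DN-CLIM was higher without overlap within arrays 1 to 3 and within arrays 4 and 5, a split that no label names. Of the called falls that overlapped at P6, Crabp1 and Scrg1 were also apart within both parts. Npnt, Arg1 and Col17a1 overlapped within arrays 1 to 3, and Lmo4 and Rflnb within arrays 4 and 5. The share of all probe sets apart within both parts was not counted, so these gaps are a description. The mean Meg3 difference of 0.95 ± 0.19 (log2, standard error, adjusted p = 0.0455 in limma) is an average of 0.37, 2.48 and 0.01. The adjusted p of Meg3 without P14 was 0.999, and its second probe set gave 0.17 (adjusted p = 0.859 in limma).

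Among the genes lower in DN-CLIM skin, Lmo4 is the member of the LIM and CLIM families. It encodes a LIM-only protein that binds CLIM cofactors through its LIM domains and is present in basal keratinocytes and follicle matrix. Lmo4 signals at P6 were 1944, 2018, 1715, 1726 and 1792 in wild type and 1325, 1355, 1228, 1327 and 2398 in DN-CLIM. Lmo4 signals at P14 were 1352, 1389 and 1259.6 in wild type and 894, 805 and 907 in DN-CLIM. Lmo4 signals at P23 were 1320.1, 1424 and 1433 in wild type and 949, 1039 and 971 in DN-CLIM. At P14 and P23 the genotypes were apart, and at P6 4 of 5 DN-CLIM arrays lay below all wild-type arrays while the fifth was the highest of all 10. Lmo4 fell by 0.48 ± 0.09 (log2, standard error, adjusted p = 0.0215 in limma), with -0.31, -0.62 and -0.50 at the 3 ages. Without that array the adjusted p was 1.13e-06 in limma. In 15 of the 22 fits that each left out 1 array Lmo4 passed, and in the others the adjusted p rose to at most 0.0703.

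The other 14 measured genes of the CLIM and LIM list did not pass the test. Lmo1 differed by 0.04 and Lmo2, which encodes another CLIM-binding protein, by -0.15 (log2). Of the LIM homeodomain genes, Lhx6 differed by -0.64 and Lhx1 by 0.58, both with dim probe sets (adjusted p = 0.658 and 0.682 in limma), and Lhx3, Lhx8, Lhx9, Isl1 and Lmx1b by 0.47, 0.11, 0.32, -0.06 and 0.08. The single-stranded DNA binding partners Ssbp2 and Ssbp4 gave 0.01 and 0.11, and Rlim, a ubiquitin ligase for CLIM, -0.02. In all 1 of 15 passed, beside 15 of 8251 genes, and the median difference was 0.04 beside 0.004 over all genes. Without the fifth DN-CLIM array at P6 the list's median was 0.004.

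Col17a1 encodes collagen XVII, the transmembrane collagen by which hemidesmosomes hold basal keratinocytes to the basement membrane. Col17a1 signals at P6 were 1632, 1821, 1740.0, 1807 and 1772 in wild type and 1659, 1289.6, 1426, 1163 and 1319.5 in DN-CLIM. Col17a1 signals at P14 were 2506, 2467 and 2488 in wild type and 1469, 1781 and 1607 in DN-CLIM. Col17a1 signals at P23 were 7428, 6767 and 6609.9 in wild type and 5044, 4715 and 5110.2 in DN-CLIM. At P14 and P23 all DN-CLIM arrays lay below all wild-type arrays, and at P6 4 of 5 did. Col17a1 fell by 0.49 ± 0.06 (log2, standard error, adjusted p = 8.53e-05 in limma), a 1.4-fold lower signal, with -0.36, -0.62 and -0.48 at the 3 ages. Wild-type signals were highest at P23, and the difference at P23 lay between those at the other ages.

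The other 12 measured genes of the hemidesmosome and basal layer list did not pass. The plakin gene Plec differed by 0.45 ± 0.18 (adjusted p = 0.731 in limma), with a signal of 3572 on the fifth DN-CLIM array at P6 against 897 to 1368 on the other 4. The integrin genes Itga6 and Itgb4, partners of collagen XVII in the hemidesmosome, gave 0.08 and 0.17, and the laminin 332 chain Lamb3 0.14. Trp63, the regulator of basal identity, gave -0.11, with all 3 ages below 0. The basal keratin Krt5 averaged 0.03 ± 0.34 from 0.94, -0.78 and -0.06 at the 3 ages on a dim probe set (23.7 as percentile of mean signal), which does not fix its level. Krt14, whose promoter drives the transgene, differed by 0.72 ± 0.36 on a dim probe set (19 as percentile of mean signal, adjusted p = 0.854 in limma). Its signals ran from only 11.9 to 96.9 over all arrays, which does not fix its level either. In this list 8 of 13 genes were higher, Krt5 and Krt14 included, and 5 lower, with a median of 0.03. Fewer basal cells and less Col17a1 RNA per cell cannot be told apart in whole skin, and the same holds for every gene here.

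Bnc1 encodes basonuclin, a zinc finger protein of basal and follicle keratinocytes that regulates ribosomal RNA genes. Bnc1 signals at P6 were 556, 603, 621, 665 and 661 in wild type and 395, 455, 361, 378 and 375 in DN-CLIM. Bnc1 signals at P14 were 756, 873 and 784 in wild type and 587, 584 and 603 in DN-CLIM. Bnc1 signals at P23 were 234, 254 and 287 in wild type and 161, 147 and 181 in DN-CLIM. All DN-CLIM arrays lay below all wild-type arrays at each age. The fall was 0.59 ± 0.07 (log2, standard error, adjusted p = 8.53e-05 in limma), a 1.51-fold lower signal, with -0.66, -0.44 and -0.67 at the 3 ages. It was the single gene of 19 measured epidermal transcription factors past the threshold. The median of that list was 0.03, and it was -0.001 without the fifth DN-CLIM array at P6. Klf5 and Gata3 gave -0.07 and -0.13 and Tfap2a and Elf3 0.15 and 0.28, none past the test.

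Npnt encodes nephronectin, a basement membrane ligand of integrin α8β1 made by bulge keratinocytes. Npnt signals at P6 were 351, 260.1, 382, 374 and 385 in wild type and 288, 268, 301, 322 and 256 in DN-CLIM. Npnt signals at P14 were 239.8, 228 and 272 in wild type and 177, 129.7 and 142 in DN-CLIM. Npnt signals at P23 were 503, 586 and 531 in wild type and 278, 297 and 271 in DN-CLIM. The genotypes overlapped at P6 and were apart at P14 and P23. Npnt fell by 0.65 ± 0.09 (log2, standard error, adjusted p = 0.00111 in limma), with -0.28, -0.73 and -0.94 at the 3 ages, and without P23 the adjusted p was 0.255. Itga8, the gene of its receptor's α chain, chosen here after its values were seen, gave -0.33 on a dim probe set (adjusted p = 0.969 in limma). Of 16 measured basement membrane genes, 1 passed, 9 were lower and the median was -0.09, or -0.06 without the fifth DN-CLIM array at P6. Lamc1 differed by 0.32 (second probe set 0.20) and the collagen IV genes Col4a1 and Col4a2 by -0.11 and -0.09.

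Crabp1 encodes a cytoplasmic binding protein for retinoic acid, known in skin from dermal papilla and follicle. Crabp1 signals at P6 were 228, 253, 255, 266 and 237 in wild type and 101, 178, 181, 227 and 234 in DN-CLIM. Crabp1 signals at P14 were 127, 89.6 and 119 in wild type and 37.2, 53.3 and 20.4 in DN-CLIM. Crabp1 signals at P23 were 234, 375 and 300.0 in wild type and 188, 165 and 151 in DN-CLIM. At P14 and P23 the DN-CLIM arrays lay below all wild-type arrays, while at P6 the fifth DN-CLIM array lay within the wild-type range. Crabp1 fell by 1.0 ± 0.17 (log2, standard error, adjusted p = 0.00993 in limma), with -0.49, -1.69 and -0.83 at the 3 ages.

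Of the enzymes, Gnmt encodes glycine N-methyltransferase, which uses S-adenosylmethionine to methylate glycine. Gnmt signals at P6 were 349.5, 421, 357, 373 and 406 in wild type and 159.7, 181, 104, 102 and 152 in DN-CLIM. Gnmt signals at P14 were 184, 325 and 285 in wild type and 154, 111 and 162 in DN-CLIM. Gnmt signals at P23 were 95.6, 119 and 68.3 in wild type and 68.9, 77.1 and 77.5 in DN-CLIM. The groups were apart at P6 and P14 and overlapped at P23. Gnmt fell by 0.89 ± 0.14 (log2, standard error, adjusted p = 0.0056 in limma), with -1.48, -0.87 and -0.31 at the 3 ages, and without P6 the adjusted p was 0.499.

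Arg1 encodes arginase, which splits arginine into ornithine and urea. Arg1 signals at P6 were 558, 446, 427, 345 and 566 in wild type and 326, 352, 504, 218 and 273 in DN-CLIM. Arg1 signals at P14 were 754, 903 and 1036 in wild type and 368, 569 and 443 in DN-CLIM. Arg1 signals at P23 were 416, 283 and 362 in wild type and 212, 182 and 220.1 in DN-CLIM. The groups were apart at P14 and P23, and at P6 the second and the third DN-CLIM arrays lay within the wild-type range. Arg1 fell by 0.76 ± 0.13 (log2, standard error, adjusted p = 0.0126 in limma), with -0.52, -0.98 and -0.77. Leaving out the third wild-type array at P14 gave an adjusted p of 0.0509.

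Scrg1 encodes a small secreted protein first found through its induction in scrapie-infected brain. Scrg1 signals at P6 were 132, 166, 38.6, 117 and 144 in wild type and 27.4, 15.2, 21.5, 43.8 and 17.6 in DN-CLIM. Scrg1 signals at P14 were 197, 192 and 101 in wild type and 41.0, 17.4 and 22.1 in DN-CLIM. Scrg1 signals at P23 were 25.0, 13.9 and 15.6 in wild type and 8.54, 10.7 and 5.4 in DN-CLIM. At P14 and P23 the groups were apart, and at P6 the third wild-type array fell below the highest DN-CLIM array. Scrg1 fell by 2.0 ± 0.29 (log2, standard error, adjusted p = 0.00146 in limma), a 4.0-fold lower signal, and 2.18-fold after adding 32, since several signals are dim. The differences were -2.20, -2.64 and -1.15 at the 3 ages, and without P14 the adjusted p was 0.188.

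Rflnb encodes refilin B, a partner of the actin cross-linker filamin. Rflnb signals at P6 were 1303, 1401, 1401, 1131 and 1345 in wild type and 1100.2, 1101, 949.7, 1203 and 1619 in DN-CLIM. Rflnb signals at P14 were 1908, 1947 and 1897 in wild type and 1084, 1432 and 1257 in DN-CLIM. Rflnb signals at P23 were 1490.0, 1639 and 1457 in wild type and 1056, 1114 and 982 in DN-CLIM. At P14 and P23 the groups were apart, and at P6 the fifth DN-CLIM array was the highest of all 10. Rflnb fell by 0.44 ± 0.08 (log2, standard error, adjusted p = 0.0126 in limma), with -0.16, -0.62 and -0.54.

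Nrep, also known as P311, encodes a small intracellular protein of neurons and wound fibroblasts. Nrep signals at P6 were 4078, 3668, 3465, 4096 and 3832 in wild type and 2882, 3079, 3239, 2820.5 and 2381 in DN-CLIM. Nrep signals at P14 were 1880.1, 2142 and 1846 in wild type and 1659, 1507 and 1598 in DN-CLIM. Nrep signals at P23 were 2426, 2858 and 3106 in wild type and 2571, 2298 and 2519 in DN-CLIM. The groups were apart at P6 and P14 and overlapped at P23. Nrep had the smallest fall, 0.30 ± 0.06 (log2, standard error, adjusted p = 0.049 in limma), with -0.42, -0.30 and -0.18, and it passed in 4 of the fits that each left out 1 array.

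Whether a genotype difference varied with age was tested for each probe set, and 0 passed in limma after adjustment (0%), with 697 at an unadjusted p below 0.05 (5.61%). Of the 15 called genes, 7 had an unadjusted p at or above 0.05 in that test. They were Pdlim4, Nrep, Lmo4, Col17a1, Bnc1, Arg1 and Scrg1. The other 8 were below it, with the smallest values for Meg3 (8.11e-05) and Gsc (0.000281), and this does not show that the first 7 are even over age. For Gsc the difference was largest at P6, for Krt7, Slc29a1, Crabp1, Meg3 and Rflnb at P14, for Npnt at P23 and for Gnmt at P6.

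**Figure D2:**
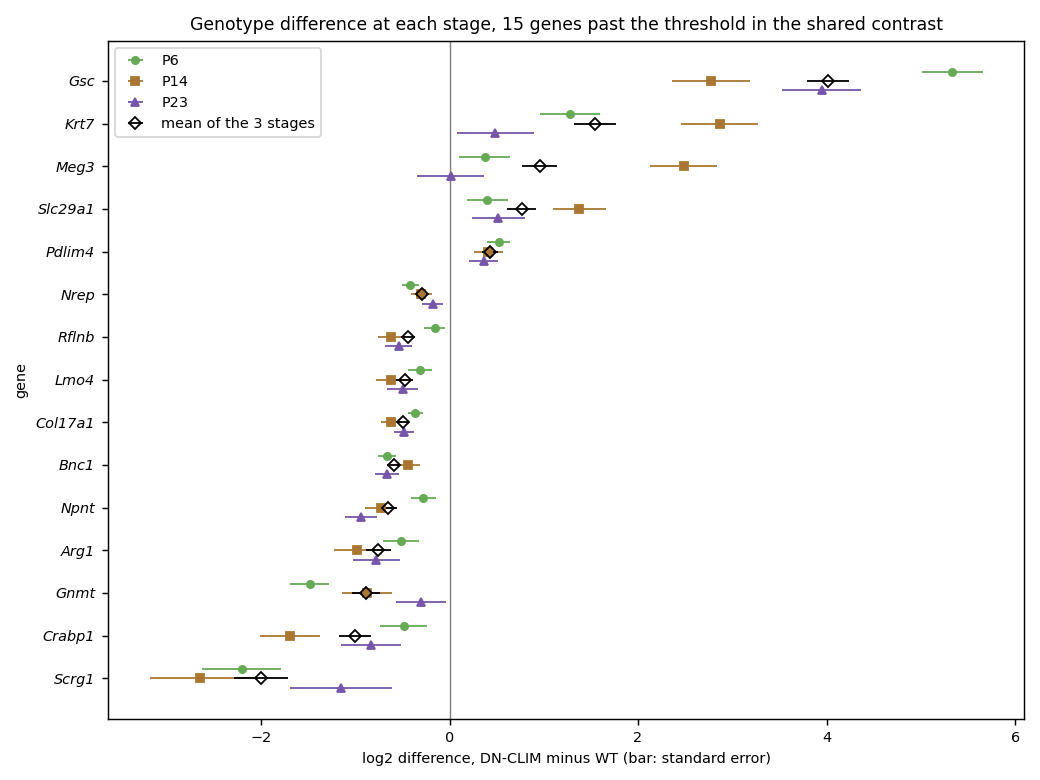
log2 difference DN-CLIM minus wild type (horizontal axis) of the 15 called genes at P6, P14 and P23 and their mean, with bars for the standard error. Pdlim4, Bnc1 and Col17a1 have differences close to each other at the 3 ages, while that of Meg3 is 2.48 at P14 and 0.01 at P23.

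The ages share no array, so genes chosen at one age can be read at another. At P6, P14 and P23, 5, 13 and 12 probe sets passed after adjustment in limma (0.0403%, 0.105% and 0.0966%), and 931, 832 and 451 at an unadjusted p below 0.05 (7.49%, 6.7% and 3.63%). Of the 931 of P6, 51.5% had the same sign at P14 and 54.2% at P23, beside 49.8% and 51.5% of all probe sets. Of the 832 of P14, 51.2% had the same sign at P6 and 53% at P23, beside 49.8% and 50%. Of the 451 of P23, 55.4% had the same sign at P6 and 49% at P14, beside 51.5% and 50%. Of those past adjustment, 4 of 5 from P6 had the same sign at P14 and at P23, 10 and 11 of 13 from P14 at P6 and P23, and 6 and 6 of 12 from P23 at P6 and P14. Across all 12422 probe sets the Pearson correlation of the differences was -0.006 between P6 and P14, 0.026 between P6 and P23 and 0 between P14 and P23. Over the 6211 probe sets at or above the median mean signal, these were 0.024, 0.104 and 0.01. Probe sets are not independent replicates, so these are descriptions.

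**Figure D3:**
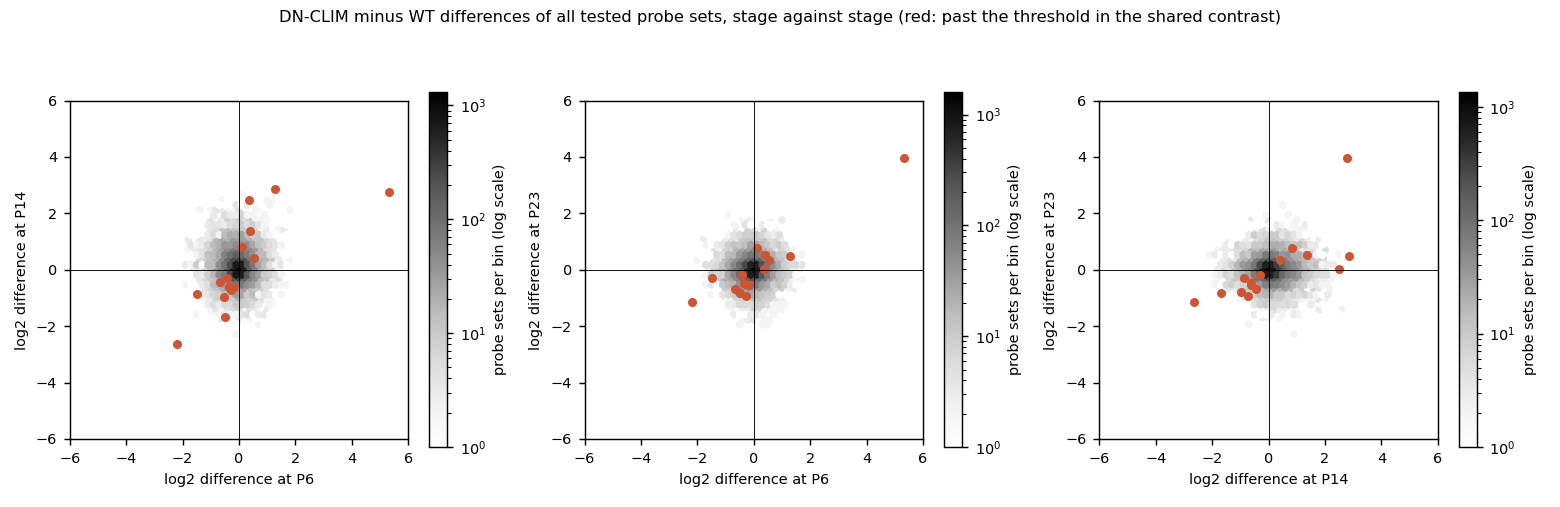
log2 difference DN-CLIM minus wild type of all 12422 probe sets at one age against another, in 3 panels, with grey bins for the number of probe sets (log scale) and red points for the 16 past the threshold in the mean over the ages. The grey cloud has no slope (Pearson correlation from -0.006 to 0.026). Each red point has the same sign at both ages, which its choice by the mean favours, with Gsc farthest from the centre. Some lie near an axis, such as Meg3 at P14 against P23, or near the centre, such as Nrep.

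The next genes by p with the same sign at all ages did not pass. Gpsm3, a regulator of G protein signalling, differed by -0.87 (adjusted p = 0.0566 in limma), and its second probe set by -0.17. On the first, groups were apart at P14 alone, with signals of 222 to 247 in wild type and 55.6 to 68.0 in DN-CLIM. Fcgbp, a mucin-like IgG Fc binding protein gene, differed by -0.78 and, on its second probe set, by -0.67 (adjusted p = 0.0933 and 0.336 in limma). Both Fcgbp probe sets were lower at all 3 ages. The cornified envelope gene Sprr1a gave 0.43 (adjusted p = 0.0942 in limma), most of it from P23 (0.22, 0.0012 and 1.08). Krt1, the keratin of suprabasal epidermis, gave 0.43 ± 0.10 (adjusted p = 0.123 in limma), with 0.41, 0.34 and 0.53 at the 3 ages. Krt1 signals at P6 ran from 18142 to 20524 in wild type and from 22028 to 33258 in DN-CLIM, without overlap.

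Others in this tier were the BMP signal transducer Smad1 at -0.25, the Wnt receptor Fzd2 at -0.35, the nucleoporin Nup50 at 0.34 (its second probe set -0.05) and the kinase Tnk2 at 0.24. The pseudouridine synthase Pus1 gave -0.63 and the creatine synthesis enzyme Gamt -0.65 (its second probe set -0.09). H2-D1, a class I histocompatibility gene, gave 0.40 on a probe set of the family type, and 0.20 and 0.19 on its others, so that related genes may share the signal. The unnamed transcript AI506816 gave 1.93, and -0.20 on its brighter probe set. On the dimmer one the groups were apart at P14 alone, with signals of 13.0 to 23.5 in wild type and 243 to 403 in DN-CLIM. Its wild-type signals at P6 ran from 13.8 to 367. The adjusted p-values of the genes in this paragraph lay between 0.123 and 0.239 in limma.

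Follicle genes leaned lower without passing. Over all 8251 genes, with the brightest probe set of each, 4025 were lower in DN-CLIM and 4226 higher, and 25.9% had the same sign at all ages. Of 10 hair shaft keratins 0 passed and 9 were lower, with a median of -0.09 (log2), among them Krt32 at -0.27, with -0.15 on its second probe set, and Krt34 at -0.34, a value that ran from -0.54 to -0.15 with single arrays left out. Of 10 inner root sheath genes 0 passed and 9 were lower, 6 of them at all 3 ages, with a median of -0.14, among them the keratins Krt27 at -0.29 and Krt72 at -0.14 and the transglutaminase Tgm3 at -0.27. Of 9 keratin-associated proteins, the cross-linked matrix of the hair shaft, 7 were lower, among them Krtap14 at -0.29 and Krtap3-1 at -0.32. The other 2 were higher, among them Krtap13. Krtap13 signals at P14 ran from 953 to 1104 in wild type and from 1570 to 1964 in DN-CLIM, without overlap, and the genotypes overlapped at P6 and P23. The Krtap3-1 mean came from -0.08, 0.02 and -0.91 at the 3 ages, and at P23 its signals were only 113 to 368. Krt27 and Krt34 also had low signals at P23, 104 to 259 and 14.7 to 78.7, against at least 16026 and 7657 at the earlier ages. Their means thus rest in part on dim signals. For P6, P14 and P23 the medians were -0.22, -0.08 and -0.06 for the hair shaft keratins. They were -0.06, -0.14 and -0.13 for the inner root sheath genes. Of 13 follicle transcription factors 11 were lower, with a median of -0.13, among them Dlx2 at -0.43 and Foxn1, the nude gene needed for the hair shaft, at -0.35, which ran from -0.56 to -0.17 with single arrays left out. Gata3 and Cux1 stand in the inner root sheath and the transcription factor lists. The mean log2 signal of the hair shaft keratins per array ran at P6 from 12.67 to 13.29 in wild type and from 12.57 to 13.03 in DN-CLIM, and the genotypes overlapped at each age. The follicle transcription factors were apart at P14, with a list mean of 9.58 to 9.63 in wild type and 9.20 to 9.46 in DN-CLIM, and overlapped at P6 and P23. The inner root sheath and keratin-associated protein lists overlapped at each age.

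Of 20 bulge genes 15 were lower with a median of -0.13, and Col17a1 alone passed. Cd34, a marker of bulge stem cells, gave -0.17, and the same value on its second probe set, the matrix gene Tnc -0.39 (second probe set 0.11), and Ccn2 -0.33. The bulge medians for P6, P14 and P23 were 0.01, -0.06 and -0.21. At P23 the bulge list mean ran from 9.23 to 9.35 in wild type and from 8.95 to 9.10 in DN-CLIM, without overlap, and at P6 and P14 the genotypes overlapped. Such gaps were common. At P23 the CLIM, basement membrane, stress response, differentiation, Wnt, dermal papilla, dermal matrix and endothelial list means were also apart, in either direction. At P14 the stress response, activin and BMP, adipocyte, endothelial, cell cycle and follicle transcription factor lists were. Of single probe sets, 14.1% were apart at P14 and 12.5% at P23. For epidermal differentiation, 0 of 19 genes passed, 6 were lower and the median was 0.04, which became 0.149 without the fifth DN-CLIM array at P6. Lor and Calm4, both of the cornified layer, gave 0.20 and 0.19. A dim second Lor probe set gave -0.52. For the stress response of keratinocytes 0 of 19 passed. Its median over the ages was 0.06, and 0.04 without that array, and the medians for P6, P14 and P23 were 0.003, -0.09 and 0.40. Krt16, a keratin induced in wounded epidermis, gave 0.18, -0.01 and 1.69 at the 3 ages, and Krt6b 0.31, 0.16 and 0.52. The brightest of 3 Krt17 probe sets gave 0.05, 0.03 and 0.51.

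**Figure D4:**
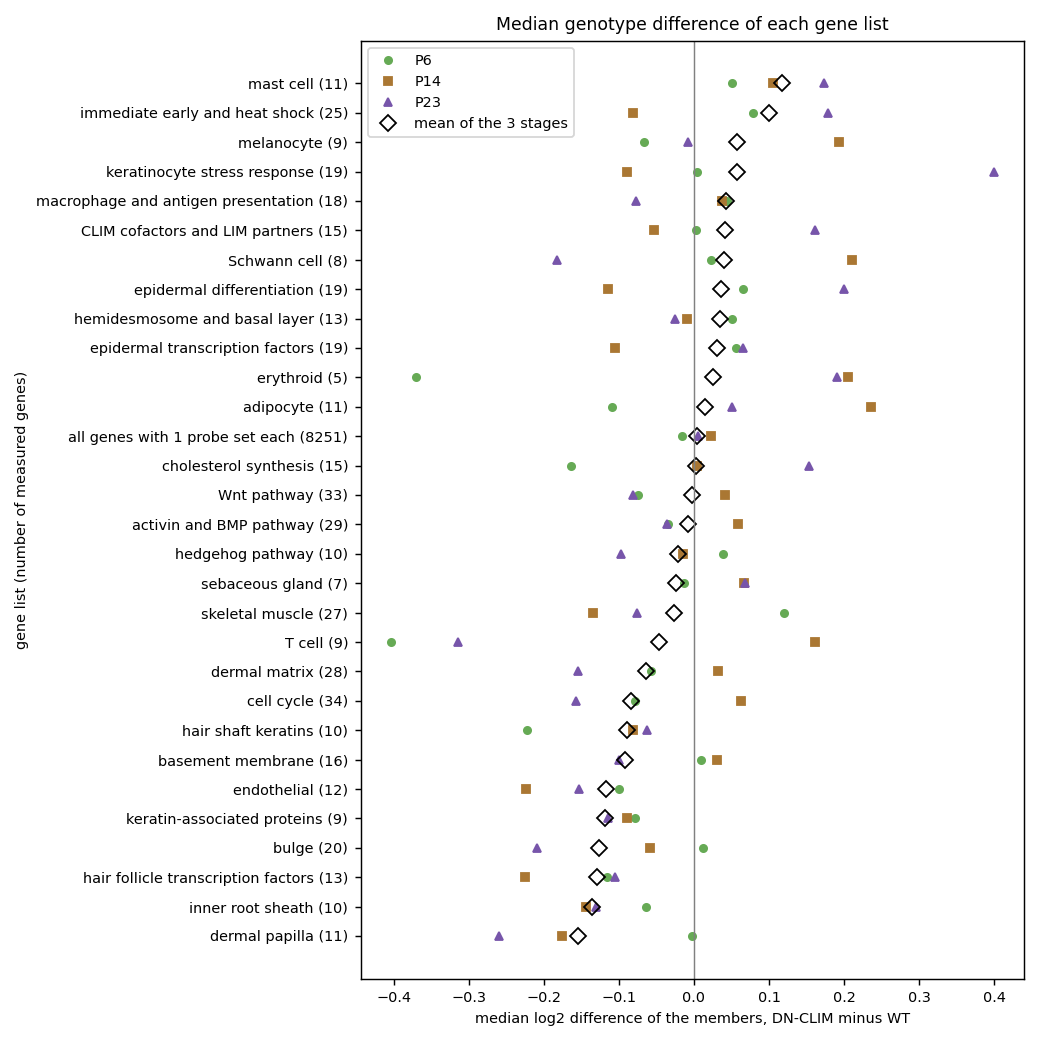
Median log2 difference DN-CLIM minus wild type of the members of each gene list (horizontal axis) at each age and in the mean over the ages, with the number of measured genes in brackets. The medians over the ages run from -0.15 for the dermal papilla list to 0.12 for the mast cell list, beside 0.004 over all genes.

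Signalling lists were mixed. In the hedgehog list 0 of 10 passed and 5 were lower, with -0.18 for the receptor Ptch1 (second probe set 0.21), 0.36 for the ligand Shh, which was 0.17 without the first wild-type array at P23, and -0.22 for Dhh (second probe set 0.19). In the activin and BMP list 0 of 29 passed with a median of -0.01, and in the Wnt list 0 of 33 with -0.003, which was 0.02 without the fifth DN-CLIM array at P6. The Wnt inhibitor Dkk2 gave -0.51 on a dim probe set. The cell cycle list had 25 of 34 genes lower, 0 past the test and a median of -0.08, but its medians by age were -0.08, 0.06 and -0.16. At P14 its mean log2 signal was higher in DN-CLIM without overlap, from 9.15 to 9.20 in wild type and from 9.21 to 9.30 in DN-CLIM. Rrm2, a ribonucleotide reductase subunit, gave -0.45, Top2a -0.21 and Cks1b -0.17, while the mitotic kinase Aurkb gave 0.73, mostly from P14 (1.78).

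None of the genes on the marker lists of cells other than keratinocytes was called. The called genes Crabp1 and Nrep, described above for dermal papilla and fibroblasts, stand on none of these lists. Of 28 dermal matrix genes 24 were lower with a median of -0.06, among them the collagen fibril proteins Fmod at -1.06, Ogn at -0.36 (second probe set -0.13) and Col14a1 at -0.21. The Fmod mean came from -0.04, -0.88 and -2.25 at the 3 ages. At P23 its signals ran from 579.9 to 816 in wild type and from 57.9 to 368 in DN-CLIM, without overlap, and at P6 and P14 they were dim. The mean log2 signal of this list ran at P6 from 10.89 to 11.03 in wild type and from 10.56 to 10.93 in DN-CLIM. At P14 it ran from 10.29 to 10.34 and from 10.14 to 10.48, and at P23 from 11.57 to 11.65 and from 11.36 to 11.40. The genotypes thus were apart at P23 alone. Of 12 endothelial genes 10 were lower with medians of -0.10, -0.22 and -0.15 at P6, P14 and P23, among them Cd93 at -0.33, Cdh5 at -0.21 and Flt1 at -0.51 (second probe set -0.19). The endothelial mean ran at P6 from 7.99 to 8.19 in wild type and from 7.84 to 8.31 in DN-CLIM, at P14 from 7.84 to 7.90 and from 7.53 to 7.74, and at P23 from 8.63 to 8.84 and from 8.52 to 8.58, apart at P14 and P23. Of 11 dermal papilla genes, 3 of them at or above the median signal, 7 were lower with a median of -0.15, and Vcan and Igfbp3 gave 0.25 and -0.28 (second probe set of Igfbp3 -0.66). Their part in the differences of the 15 called genes was not tested.

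Of 11 mast cell genes 8 were higher with a median of 0.12, 4 of the 11 at or above the median signal. Adipocyte, skeletal muscle, macrophage, Schwann cell, melanocyte, erythroid, sebaceous gland and T cell medians were 0.01, -0.03, 0.04, 0.04, 0.06, 0.03, -0.02 and -0.05, and cholesterol synthesis gave 0.002. Without the fifth DN-CLIM array at P6, the medians that moved by over 1.5 times were muscle at -0.01, Schwann cell at 0.12, melanocyte at 0.10, sebaceous gland at -0.07, T cell at -0.10 and cholesterol synthesis at 0.03. Within them, the desaturase gene Scd1 of the sebaceous gland gave -0.23 (second probe set -0.09) and the pigment gene Dct 0.32. Of 25 immediate early and heat shock genes, which respond to handling of tissue, 19 were higher with a median of 0.10, among them Hspa1a at 0.27 and Egr2 at 0.19. By array their mean log2 signal overlapped between genotypes at each age, as at P23 with 9.31 to 9.51 in wild type and 9.47 to 9.70 in DN-CLIM. Its part in the called differences was not tested.

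The genes whose differences varied most with age were mostly outside the shared set. Fst, encoding the activin inhibitor follistatin, differed by 0.25 at P6, 0.06 at P14 and -1.07 at P23, and Gli1, a hedgehog target, by 0.10, 0.06 and -1.32. Their means over the ages were -0.26 and -0.39 (adjusted p = 0.676 and 0.419 in limma). Sft2d1, of vesicle transport, gave -0.40, 1.34 and 0.00061, and Gyg, the glycogen primer glycogenin, 0.29, -2.59 and -0.16 on a dim probe set. The brighter Gyg probe set gave 0.18, 0.10 and 0.01. In the test of differences between ages their unadjusted p-values were 2.24e-05, 6.49e-05, 1.57e-05 and 5.52e-05, and each had an adjusted p of 0.134 in limma.

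Col17a1 and Bnc1 passed under all 37 alternatives, which left out single arrays or whole ages, rescaled, added 32, weighted arrays or blocked them, and Gsc under the 36 that held its probe set. The largest adjusted p over these was 0.0427 for Col17a1, 0.0312 for Bnc1 and 0.000543 for Gsc in limma. With any 1 array left out, 9 genes passed throughout. They were these 3, Krt7, Npnt, Scrg1, Gnmt, Crabp1 and Rflnb. Arg1 passed in 21 of 22, Lmo4 in 15, Pdlim4 in 8, Slc29a1 in 6, Meg3 in 5 and Nrep in 4. No called difference changed sign under any of them. 10 of the 15 genes had a mean signal above the median of all probe sets, and Gsc, Krt7, Scrg1, Gnmt and Crabp1 were below it, where ratios are less precise.

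**Figure D5:**
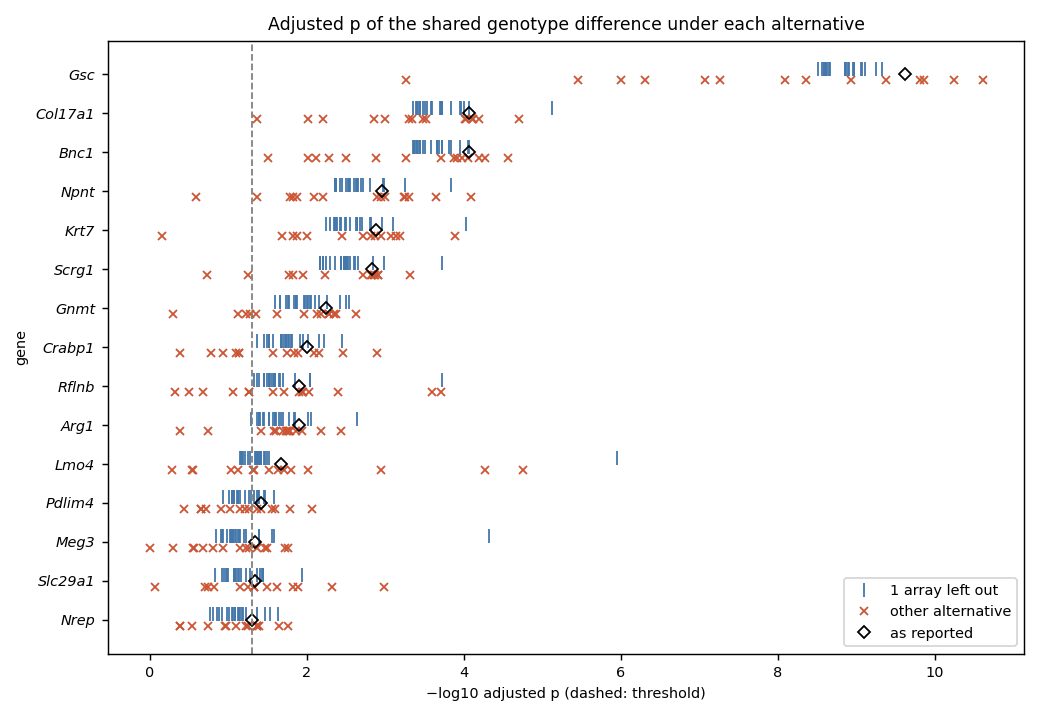
Adjusted p, as −log10 (horizontal axis), of the mean difference over the ages for the 15 called genes, as reported and under each alternative, with a dashed line at the threshold of 0.05. Gsc, Col17a1 and Bnc1 lie right of the line under each alternative, while Pdlim4, Slc29a1, Meg3 and Nrep cross it when most single arrays are left out.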

How the data were processed

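Back skin RNA of DN-CLIM and wild-type mice was measured on 22 single-colour arrays. The authors deposited 1 MAS5 intensity per probe set and array on a linear scale (MAS5 per the submitters' processing notes, with no version stated), and the 2% trimmed mean of each array was 500.25 to 500.34. Of 12488 probe sets 66 controls were left out. The platform annotation gave 10833 probe sets 1 gene, 396 several and 1193 none, and 10817 matched RefSeq by Entrez identifier with 0 symbols changed. log2 of the intensity was used without scaling, since the array medians differed by less than 0.3. limma 3.58.1 (R 4.3.3) fitted 6 group means (16 residual degrees of freedom) with eBayes and a variance trend. Benjamini-Hochberg adjustment ran over all 12422 probe sets. No detection calls were used, and the number of arrays limits the precision.

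The members and the 30 gene lists were chosen with earlier results of these data known. Named were the called genes, the next 12 by p with the same sign at all ages, up to 5 genes of each list by p, 6 genes differing between ages, and 11 genes whatever their values, of which Lhx2 had no probe set with 1 gene. The text names a selection of them. Other list members, such as Itga6, are named without a rule and were chosen after their values were seen. In simulated data with 200 changed probe sets, 42% of changes of 0.5 (log2) and 66% of changes of 1 were recovered, and 2 of 110 calls were false. Replicate numbers were not used to pair arrays. Of 11 pairs with the same number 1 correlated above 0.1, and 4 of 11 over the brighter probe sets, where the highest was 0.249. Some shared structure by number is thus not excluded. Alternatives were other scalings, filters, weights, blocks and left-out arrays or ages.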

Additional observations from a re-analysis of the deposited data

Results flagged for a closer look

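On 11 occasions in 156 groups of 5 arrays, 1 array stood apart from the other 4 of its group by Dixon's criterion, which chance meets in about 1 in 20 groups. All are P6 groups, since those of 3 arrays were not examined. On the fifth DN-CLIM array, Lmo4 read 11.23 (log2) with the nearest at 10.4, Fcgbp 6.85 with 7.77, Gli1 8.77 with 9.24 and Gyg 5.05 with 6.09. On the first wild-type array, Gpsm3 read 6.83 with the nearest at 7.57, Nup50 9.04 with 9.39, Foxn1 9.53 with 9.21 and Aurkb 8.78 with 9.2. Npnt on the second wild-type array read 8.02 with the nearest at 8.45, and Scrg1 on the third 5.27 with 6.88. Fmod on the second DN-CLIM array read 4.91 with the nearest at 5.13.

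Cox5a, on a dim probe set, had genotype groups without overlap at every age but in opposite directions, with differences of 1.38 at P6, 2.53 at P14 and -1.8 at P23 (log2). The test of a difference between ages gave an unadjusted p of 6.4e-05 and an adjusted p of 0.134 in limma. Its brighter probe set gave -0.41, 0.92 and 0.52.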

How the results depend on the processing

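The count of 16 probe sets called over the 3 ages moved to 27 with array weights, 6 with P14 left out and 7 with P23 left out, ran from 11 to 21 with single arrays left out (11 without the third wild-type array of P14 or the second or the third of P23, 21 without the fifth DN-CLIM array of P6), and apart from these and the replicate block stayed within 1.5 times of 16. Of the 6 calls without P14 only 4 were among the 16, while all 7 without P23 were. With P6 left out 20 probe sets passed, 10 of them among the 16. No label says that the replicate numbers pair the arrays, and they were not used so. With the number as a replicate block the count was 10, 9 of them among the 16, with 4 calls at P14 and 2 at P23. Of the 15 called genes 8 passed in that fit. The 0 probe sets differing between ages became 1 after quantile normalization and 1 with 32 added, and 0 to 3 with single arrays left out. Restricted to brighter probe sets, 2 passed at P6, 4 at P14, and 2 were apart at all ages. With single arrays left out the calls ran from 4 to 10 at P6, from 4 (without the third wild-type array) to 27 (without the third DN-CLIM array) at P14 and from 2 (without the third DN-CLIM array) to 14 at P23. Of 550 values of the 15 called genes under alternatives, 134 no longer passed and 0 changed sign. Signs turned for Sft2d1 (-0.20), Gyg (0.0674) and Cox5a (-0.21) without P14 and for Fst (0.15) and Gli1 (0.0792) without P23, each a mean of opposed ages, and for Ldb2 to -0.0506 without P14, -0.0053 in an additive model and -0.0021, -0.0185, -0.0233 and -0.0115 with 4 of the single arrays left out (range -0.0233 to 0.0493). The cause was not tested for the other moves. Gene list counts were also read after the other scalings and without the fifth DN-CLIM array of P6, alternatives chosen after seeing the data, and 114 of 116 stayed within 1.5 times, the exceptions being erythroid; list medians moved more.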
